A study of Sus scrofa with 18 samples.

Results

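The microRNA (miRNA) reads that differed from their own precursor by a single A-to-G change inside the read were examined in small RNA libraries of pig backfat, the subcutaneous fat along the back. The table of read sequences listed 1205 such variants among 16636 distinct sequences, each counted once. A variant belonged to the group when it carried 1 mismatch, when that mismatch turned a templated A into a G, and when it lay from read base 2 to the third-last base. Templated bases were taken from the exact, shorter and longer forms of the same miRNA in the same precursor. The variants came from 113 of 240 mature miRNAs and from 439 sites, a site being a base of a mature miRNA counted from 1 at its annotated start. The 18 libraries were made from as many Italian Large White pigs, 9 labelled high and 9 labelled low for backfat deposition. The pigs were 233 to 250 days old, weighed 150 to 160 kg, and shared their housing and their feed. There were 4 females among the high pigs and 5 among the low pigs, and the others were castrated males. Total RNA of frozen backfat held every cell type of the tissue, so fewer cells of a type and less RNA per cell cannot be told apart.

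Adenosine deaminases acting on RNA (ADAR enzymes) turn adenosine into inosine in double-stranded RNA, and miRNA hairpins are among their substrates. Inosine pairs like guanosine, so an edited base is read as G after reverse transcription. An edit inside the seed, the bases near the miRNA's 5′ end that pair with messenger RNAs, changes which targets are matched, while an edit near the 3′ end leaves the seed as it was. A sequencing error from A to G, or a related gene with G at that base, gives the same letters in a read, so a G in a read does not by itself mark an edit.

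The read form that most often carried the change is shown, first without and then with it, for the 9 sites whose A-to-G level stood above the level of the same change at the same read position in other miRNAs (a comparison given with its test below) and for 2 further sites that the results turn on. The letters are DNA letters of the deposited reads, 5′ to 3′, and the capital marks the base that differed. The first lines are let-7c, whose variant held most reads of the group, and the last 2 pairs are miR-10b A17G and let-7e A19G, which did not pass that comparison. The miR-99a reads begin 1 base before the annotated start, so their position 1 is read base 2.
let-7c: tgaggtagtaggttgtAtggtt
let-7c A17G: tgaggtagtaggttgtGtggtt
miR-365-3p: taatgcccctAaaaatccttat
miR-365-3p A11G: taatgcccctGaaaatccttat
miR-378: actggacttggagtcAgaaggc
miR-378 A16G: actggacttggagtcGgaaggc
miR-27b-3p: ttcAcagtggctaagttctg
miR-27b-3p A4G: ttcGcagtggctaagttctg
miR-497: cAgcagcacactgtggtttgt
miR-497 A2G: cGgcagcacactgtggtttgt
miR-708-3p: caActagactgtgagcttctaga
miR-708-3p A3G: caGctagactgtgagcttctaga
miR-99a: aAacccgtagatccgatcttgt
miR-99a A1G: aGacccgtagatccgatcttgt
miR-98: tgaggtagtaAgttgtatt
miR-98 A11G: tgaggtagtaGgttgtatt
let-7f: tgaggtagtagAttgtatagttg
let-7f A12G: tgaggtagtagGttgtatagttg
miR-10b: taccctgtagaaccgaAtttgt
miR-10b A17G: taccctgtagaaccgaGtttgt
let-7e: tgaggtaggaggttgtatAgtt
let-7e A19G: tgaggtaggaggttgtatGgtt

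Together the 1205 variants held 3629579 reads, 0.856% of all reads, with 0.510% to 1.19% in single libraries. Library totals ran from 10225931 to 37619209 reads. Of the variants, 122 were listed in all 18 libraries, 848 in 2 to 17, 209 in 1 and 26 in none of the 18, and 400 changed a base of the seed (bases 2 to 8). None had letters templated for another miRNA of the table, but 41 were also listed under another miRNA or base with a different change. The table gave a sequence no count under 10 reads in a library, so a variant listed at 0 may stand for up to 9 reads, and low levels are cut off at that limit. As a check of the tissue, the adipose-expressed miR-143-3p, miR-148a-3p, miR-27b-3p, miR-378 and miR-103 held 23.9% to 33.4% of the reads in high and 25.8% to 32.5% in low pigs. The 5 skeletal muscle markers held at most 0.0351% and the liver marker miR-122 at most 0.00362%. The red blood cell markers held 0.234% to 0.874%, the 3 white blood cell markers found of 4 listed 0.102% to 0.299%, and the endothelial miR-126 pair 1.42% to 3.77%.

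Just inside and outside the limits of the rule, and leaving out let-7c A17G, the A-to-G rate per unsubstituted read was 0.229% at the first base and 0.0180% at the second, with all libraries pooled. It was 0.107% at the third-last base, 0.194% at the second-last and 2.21% at the last. The ends of the reads thus carried more A-to-G reads than the bases just inside them, and the last base, where bases can also be added to a finished miRNA, carried the most.

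One site outweighed the rest of the group. The A17G variants of let-7c, of a family that promotes differentiation, were 10 sequences with 2290097 reads, 63.1% of all reads of the group. Per unsubstituted let-7c read they reached 93.9% to 137% (median 116% in high and 106% in low pigs), so a read with G at this base was about as frequent as one with A in every library. The 22-base form with G held 1267772 reads against 1719205 with A, the 21-base form 412362 against 228483, the 23-base form 404602 against 108991 and the 20-base form 188802 against 30598. The variant thus ended elsewhere than let-7c did: its 22-base form was 55.4% of its reads, against 81.7% of the unsubstituted reads. As background, the 22-base A17G sequence has the letters of let-7b of other mammals. The deposited table named let-7a, let-7c, let-7d, let-7e, let-7f, let-7g, let-7i and miR-98 and no let-7b, and whether these reads come from a let-7b gene was not tested. The changed base was position 62 of the let-7c precursor as the table numbers it. High pigs had a level of 113 ± 12% and low pigs 109 ± 11.6% (SD, 9 libraries each), a difference of 0.07 ± 0.17 on the log2 scale (SE, limma adjusted p = 0.980). The classes overlapped over nearly their whole range, from 93.9% to 137% and from 94.4% to 129%. Against the other changes at that base the log2 ratio was 13.43 ± 0.70 (SE, limma treat, adjusted p = 7.82e-11), and against the same read base in other miRNAs 11.65 ± 0.44 (adjusted p = 4.57e-12).

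Outside that site the A-to-G rate was low and differed between libraries by base of the read. Over all 640 A bases with at least 1000 unsubstituted reads per library on average, the pooled rate was 0.112% to 0.276% per library (median 0.182%), and without let-7c A17G it was 0.0249% to 0.150% (median 0.0485%). Of the other kinds of change, with no site left out of theirs, C-to-T (0.392%), A-to-T (0.293%) and A-to-C (0.218%) had median pooled rates above both values. T-to-G (0.1005%), T-to-A (0.0642%) and G-to-T (0.0555%) lay between them. The other 5 kinds lay below both, from T-to-C (0.0435%) down to G-to-C (0.00542%). At 212 of the 640 bases no A-to-G read was listed in any library, and at 84 it was listed in all 18. The mean level was at least 0.1% at 53 bases and at least 1% at 5.

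At several read bases, the median A-to-G level over abundant miRNAs was far higher in a few libraries than in the rest. At read base 10 it was 0.835% in high replicate 5 and 0.881% in low replicate 6, against a median of 0.0108% over the 18 libraries. At read base 6 it was 0.507% in high replicate 4 and 0.514% in low replicate 3, and at read base 7 it was 0.560% in high replicate 6 and 0.548% in high replicate 8. At read base 17 it was 0.395% in low replicate 1 and 0.456% in low replicate 4. These levels are medians over 9 to 14 miRNAs, so the high libraries were high in miRNAs of different sequence. With the log10 rates of all 12 kinds of change at each read base taken as a profile of 219 values, links with a correlation above 0.9 joined the libraries into 7 sets, 6 of them pairs and 1 of 6 libraries. The lowest correlation within a pair was 0.953, that within the set of 6 libraries was 0.829, and the highest between libraries of different sets was 0.768. These points share the libraries' depth and the base composition of the same miRNAs. The labels state that 2 libraries shared a sequencing lane without saying which, so whether the sets are lanes was not tested. Of the pairs, 3 joined a high with a low library, 2 joined high libraries and 1 joined low libraries.

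The A-to-G reads at each base were then compared with the mean of the other 2 changes of the same base in the same library, on log2 of the reads plus 0.5, with limma's treat and a 4-fold margin. At 52 of 640 A bases (8.12%) the A-to-G reads were higher past an adjusted p of 0.05. Over all 12 kinds of change 315 of 7854 comparisons passed (4.01%), and over the 11 other kinds 263 of 7214 (3.65%). The A-to-G share was above that background, yet it was lower than the share for C-to-T (14.5%) and for A-to-T (11.9%). The 52 sites lay in 28 miRNAs. At 36 of them the A-to-G reads were the higher ones in all 18 libraries, 33 lay at positions 12 to 17, and 9 lay in the seed. At 33 of the 52 the mean level was under 0.1%.

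Since the A-to-G rate depended on the read base, each site was also compared with the reads expected from the median A-to-G rate at the same read base in other abundant miRNAs of the same library. This comparison was chosen after the library profiles had been seen. It left 9 of 607 A bases (1.48%) past the same margin and threshold, of which 8 were among the 52. Over all kinds of change 116 of 7278 passed (1.59%), and over the 11 other kinds 107 of 6671 (1.60%), so the number of A-to-G sites was no larger than for other changes. Of the 52 sites, 51 could be compared in this way, and 27 of those lay within 1 log2 unit of the expected reads. The 43 that did not pass had mean levels of 0.0101% to 0.476% and a median log2 ratio to the expected reads of 0.50. Without sequences that are also listed with another change, 7 of 607 A-to-G sites (1.15%) and 79 of 6671 other changes (1.18%) passed.

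The A17G variants of miR-10b, a miRNA encoded in a HOX gene cluster, followed the libraries in this way and did not pass. They had 139135 reads in 12 sequences over a mean of 6362109 unsubstituted reads per library, and their 22-base form was the fifth most read sequence of the group with 120790 reads. The level was 0.0131% to 0.200% in high pigs (median 0.0417%) and 0.0112% to 0.539% in low pigs (median 0.0175%). The 2 highest libraries were low replicates 4 and 1. They are the pair with the highest median A-to-G rate at read base 17 over abundant miRNAs, miR-10b among them. Against the other changes at that base the log2 ratio was 3.19 ± 0.37 (SE, limma treat, adjusted p = 0.0209), and against the same read base in other miRNAs it was 0.13 ± 0.10 (adjusted p = 1). The A17G variants of miR-10a-5p and miR-143-3p had log2 ratios of -0.06 ± 0.14 and -0.03 ± 0.11 to the same read base (SE, limma, adjusted p = 1 for both). miR-143-3p, which promotes fat cell differentiation, reached 0.435% in low replicate 4 and 0.392% in low replicate 1, against 0.221% to 0.224% in high replicate 7 and low replicate 5 and at most 0.0363% in the other 14.

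The A13G variants of miR-148a-3p, a fat-enriched miRNA, and of miR-27b-3p were high in another set of libraries. The A13G level of miR-148a-3p ran from 0.00896% to 0.224% in high pigs (median 0.0119%) and from 0.0105% to 0.224% in low pigs (median 0.165%), with high replicate 7 and low replicate 5 at the top of each. The median A-to-G rate at read base 13 over abundant miRNAs, these among them, was highest in the same 2 libraries, at 0.216% and 0.224%. The A13G variants of miR-199a-3p and the A14G variants of miR-199b-3p were the same reads, since the 2 miRNAs share their sequence and differ in the annotated start. The A14G variants of miR-191 and of miR-126-3p were highest in high replicate 5 and low replicate 6, at 0.353% and 0.388% for miR-191 and at 0.418% and 0.445% for the endothelial miR-126-3p. Each of these sites had a log2 ratio to the same read base between -1.04 and 0.72 and did not pass (limma treat, adjusted p = 1). The other named sites at 0.16% or less gave log2 ratios to the same read base of 1.04 ± 0.17 for let-7a A17G, -0.49 ± 0.52 for miR-125a A9G, -1.98 ± 0.45 for miR-125a A17G, -1.33 ± 0.46 for miR-27a A13G and 2.39 ± 0.44 for the seed site miR-374a-3p A4G, none past the threshold (SE, limma treat, adjusted p = 1 for each). miR-374a-3p A4G was listed in 14 libraries and reached 0.302%.

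Outside the let-7 family, miR-365-3p A11G had the largest log2 ratio to the same read base among the named sites with a mean of 1000 or more unsubstituted reads. Those of miR-99a A1G (6.03) and miR-378 A16G (5.96) were nearly as large. miR-365-3p is encoded beside miR-193 and has been linked to brown fat. Its 5 sequences had 6326 reads over a mean of 10722 unsubstituted reads per library, from 2 precursors with the change at position 94 of one of them as the table numbers it. The level was 1.86% to 3.21% in high pigs (median 2.93%) and 2.90% to 4.39% in low pigs (median 3.53%), against 0.0910% expected from the same read base. Every library was above its expected level, and the lowest was high replicate 9. The log2 ratio was 9.29 ± 0.18 to the other changes (SE, limma treat, adjusted p = 1.80e-16) and 6.05 ± 0.43 to the same read base (adjusted p = 1.45e-06). With every unlisted count of the other changes set to 9 reads per library, the commonest form had 31.6 times as many G reads as the mean of the other changes. The variant ended where the unsubstituted reads did: the 22-base form was 81.0% of the reads with G and 77.9% of those without. Within 22 bases the variant differed from the nearest other miRNA of the table at 10 bases. The A15G level of the same miRNA was 0.223% on average and did not pass against the same read base (log2 ratio 3.31 ± 0.44, limma treat adjusted p = 0.0748).

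The A16G variants of miR-378, which sits in an intron of a gene for a regulator of mitochondrial metabolism, held 33850 reads in 9 sequences over a mean of 191039 unsubstituted reads per library. The level was 0.579% to 1.80% in high pigs (median 1.14%) and 0.560% to 1.27% in low pigs (median 0.848%). The ranges overlapped, and high replicate 3 was the highest library. The log2 ratio was 8.61 ± 0.42 to the other changes (SE, limma treat, adjusted p = 1.25e-10) and 5.96 ± 0.48 to the same read base (adjusted p = 7.48e-06), and all 18 libraries were above both. The 22-base form was 76.2% of the reads with G and 68.8% of those without. With unlisted counts at 9 per library, the G reads of that form were 107 times the mean of the other changes. The call against the same read base was lost within each run of library codes alone, which held 4 or 6 libraries.

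miR-27b-3p and miR-27a share the seed and repress fat cell differentiation, and in both the A4G change lies in that seed. For miR-27b-3p the variants held 17666 reads in 5 sequences, and the level was 0.0793% to 0.123% in high pigs (median 0.101%) and 0.0972% to 0.143% in low pigs (median 0.118%). It stayed within that narrow range in all 18 libraries, while the A13G level of the same miRNA ran from 0.00806% to 0.227%. The log2 ratio was 4.80 ± 0.18 to the other changes (SE, limma treat, adjusted p = 1.16e-10) and 3.75 ± 0.50 to the same read base (adjusted p = 0.0286), above both in all 18 libraries. The second call was lost without low replicate 9, with 1 value per set of libraries and within each run of library codes alone. For miR-27a, with 1366 reads, the level was at most 0.158% in high pigs (median 0.101%) and 0.0538% to 0.176% in low pigs (median 0.149%). It was listed at 0 in high replicate 9 alone. Its log2 ratio was 6.65 ± 0.45 to the other changes (limma treat, adjusted p = 9.17e-08) and 2.87 ± 0.29 to the same read base (adjusted p = 0.0749), so the second comparison was not past the threshold. Unlisted counts of the other changes entered the first ratio as 0, although each may stand for up to 9 reads, so that ratio may be too large. The A4G change turns the shared seed from TCACAGT to TCGCAGT, a seed of no miRNA in the table.

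miR-497 A2G is on a list of 15 sites known from other mammals as ADAR targets, written from general knowledge. Of these, 12 belong to miRNAs not found in the table under the name looked up. Listed names ending in -3p were looked up only as written. The table also has names without an arm, so whether those miRNAs are in it under such a name was not tested. miR-497, of the cell-cycle family of miR-15, miR-16 and miR-195, had 2071 reads with G in 3 sequences over a mean of 12930 unsubstituted reads per library. The level was 0.428% to 1.10% in high pigs (median 0.598%) and 0.505% to 1.84% in low pigs (median 1.01%), with low replicate 1 the highest. It was listed in all 18 libraries, against 0.0119% expected from read base 2. The log2 ratio to the same read base was 5.65 ± 0.13 (SE, limma treat, adjusted p = 8.83e-14). To the other changes at that base it was 0.33 ± 0.42 (adjusted p = 1), above them in 9 of 18 libraries. The reads with G ended like the others: 55.2% were of 21 bases against 54.6% without the change. The change turns the seed from AGCAGCA, shared with miR-15b, miR-16 and miR-195, to GGCAGCA, a seed of no miRNA in the table. The other 2 listed sites found by name were miR-455-5p A17G, with 165 reads in 7 libraries and up to 1.15%, and miR-421-3p A14G, listed in none. miR-421-3p had a mean of 1610 unsubstituted reads per library, spread over several forms. Up to 9 reads of a sequence may go unlisted in a library, so this does not show a level of 0. miR-455-5p A17G had a log2 ratio to the same read base of 0.52 ± 0.43 (limma treat, adjusted p = 1).

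The sites of miR-708-3p and miR-99a passed both comparisons at low coverage. miR-708-3p A3G, in the seed of a miRNA encoded in an intron, held 721 reads with G over a mean of 1262 unsubstituted reads per library, and 73.6% of them were of 23 bases against 39.7% of the unsubstituted reads. Counts under 10 are not listed, so rarer forms with G may be missing from the first share. The level of miR-708-3p A3G was 1.72% to 3.56% in high pigs (median 3.02%) and 1.42% to 7.21% in low pigs (median 2.74%), with low replicate 9 the highest. The log2 ratio was 4.13 ± 0.47 to the other changes (SE, limma treat, adjusted p = 0.00135), and that to the same read base was 5.63 ± 0.17 (SE, limma treat, adjusted p = 6.38e-12). miR-99a A1G, in a miRNA encoded next to let-7c, rested on reads that begin 1 base upstream, with 1043 reads with G in all over a mean of 1095 unsubstituted reads per library. It was listed at 0 in high replicate 9 and at 2.86% to 7.97% in the other libraries, and the log2 ratio was 4.47 ± 0.57 to the other changes (SE, limma treat, adjusted p = 0.0023) and 6.03 ± 0.38 to the same read base (adjusted p = 2.99e-07). Both calls against the same read base were lost when 10 reads were added to each count in place of 0.5. As a lower bound, every unlisted count of the other changes was set to 9 reads per library. The commonest form of miR-708-3p A3G then had 2.85 times as many G reads as the mean of the other changes. That is under the 4-fold margin, and for miR-99a A1G the value was 5.05.

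The sites of miR-98, let-7f and let-7e shared their reads with let-7 relatives. All 13880 reads of miR-98 A11G were also listed as let-7a A19T or let-7c G19T, and the variant's 19-base form differed from let-7a at 1 base. The level was 1.42% to 4.49% in high pigs (median 2.09%) and 0.714% to 3.96% in low pigs (median 2.78%), but 70.8% of the reads with G were that 19-base form, against 0.182% of the reads without the change. All 27912 reads of let-7f A12G were also listed as let-7a T23G or let-7e G9T, and 99.8% of the unsubstituted let-7f reads would have the letters of another miRNA if they carried the change. Its level of 0.296% to 0.530% thus came mainly from a 23-base form, which held 95.8% of the reads with G and 0.197% of those without. All 4234 reads of let-7e A19G were also listed as let-7c T9G. Its level was 0.0461% to 1.60% in high pigs (median 0.243%) and 0.0417% to 1.97% in low pigs (median 0.136%). The let-7e A19G level was highest in low replicate 6 and high replicate 5 and then in high replicates 1 and 3, which are 2 of the pairs found by profile. Without sequences listed with another change, all 3 sites lost their calls.

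With a margin of 2-fold in place of 4-fold over the same read base, 17 sites passed, 8 more than before. These were let-7e A19G, let-7g A10G, miR-16 A8G, miR-27a A4G and A6G, miR-365-3p A15G, miR-374a-3p A4G and miR-378 A6G. Of them, let-7g A10G, miR-16 A8G, miR-27a A6G and miR-378 A6G fell outside the naming rule and were named after their values were seen. The mean level of let-7g A10G was 0.149%, from 0.0381% to 0.915%, with a log2 ratio to the same read base of 2.55 ± 0.30 (SE, limma treat with a 2-fold margin, adjusted p = 0.000352). That of miR-27a A6G was 0.159%, from 0.0360% to 0.632%, that of miR-378 A6G was 0.136%, from 0.0326% to 0.582%, and that of miR-16 A8G was 0.0310%, from 0 to 0.111%. Their levels thus differed more between libraries than the level of miR-27b-3p A4G. Of these 4 sites, miR-16 A8G passed against the other changes at the same base (limma treat, adjusted p = 0.000167), and the other 3 did not.

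The bases beside the sites were compared by count. Of the 9 sites above the same read base, 3 had A, 3 had C, 1 had G and 2 had T on the 5′ side, and 2 had A, 2 had C, 3 had G and 2 had T on the 3′ side. Over all 640 A bases, 22.5% had A, 29.4% had C, 22.5% had G and 25.6% had T on the 5′ side, and 32.8% had G on the 3′ side. ADAR enzymes are known to favour some neighbours over others, a G on the 5′ side being disfavoured, and 9 sites are too few to describe such a preference.

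The question of the study, backfat deposition, was then put to the A-to-G levels. In limma on log2 of the level with sex as a covariate, 0 of 640 A-to-G sites passed between high and low backfat (0% of 7854 sites and changes), with 42 A-to-G sites at an unadjusted p under 0.05 (6.56%, against 3.97% over all sites and changes) and a lowest adjusted p of 0.980. Between castrated males and females 0 passed (0% of 7854), with 24 at an unadjusted p under 0.05 (3.75%, against 7.93% over all) and a lowest adjusted p of 0.376. For the interaction of class and sex 0 passed (0%), with 10 at an unadjusted p under 0.05 (1.56%, against 2.27%). For miR-497 A2G high pigs had 0.674 ± 0.243% and low pigs 1.07 ± 0.369% (SD, n = 9 each), a log2 difference of -0.60 ± 0.23 (SE, limma adjusted p = 0.980, unadjusted p = 0.0191). Castrated males had 0.666 ± 0.208% and females 1.08 ± 0.381% (SD, n = 9 each), a log2 difference, castrated males minus females, of -0.60 ± 0.23 (SE, limma adjusted p = 0.376). For miR-365-3p A11G high pigs had 2.83 ± 0.413% and low pigs 3.70 ± 0.502% (SD, n = 9 each), a log2 difference of -0.37 ± 0.18 (SE, limma adjusted p = 0.980). For miR-378 A16G it was 1.09 ± 0.392% and 0.839 ± 0.222%, a log2 difference of 0.30 ± 0.25, and for miR-27b-3p A4G it was 0.103 ± 0.0164% and 0.12 ± 0.0143%, a log2 difference of -0.21 ± 0.17 (limma adjusted p = 0.980 for both). In each of these sites the ranges of the classes overlapped over the 18 libraries, and none differed past the threshold.

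Within the 4 runs of library codes the order of the classes was then read for the same sites, after their values had been seen. For miR-365-3p A11G every low library was above every high library of its run. The levels were 1.86% in the high pig against 2.90% to 4.39% in AC485 to AC488, and 2.94% to 3.09% against 3.49% to 4.22% in U074 to U077. They were 2.60% to 3.21% against 3.25% to 4.03% in U134 to U139, and 2.82% to 2.85% against 3.39% to 3.53% in U966 to U969. The low pigs were also above the high pigs in all 4 sets of matching profiles that held both classes. Of the 640 A-to-G sites this was the 1 with that order in all 4 runs, among 2 of all 7854 sites and changes (0.0255%), and 0 had the opposite order. With the run of codes as a term, the log2 difference of miR-365-3p A11G was -0.39 ± 0.16 (SE, limma, unadjusted p = 0.0293, adjusted p = 0.269), and with the set as a term it was -0.50 ± 0.24 (limma adjusted p = 0.986). It was past the threshold in neither. For miR-27b-3p A4G the low libraries were above the high ones in 2 of the 4 runs, for miR-497 A2G in 1, and for miR-378 A16G the classes were apart in 1 run each way. With the run as a term, their log2 differences were -0.22 ± 0.16, -0.50 ± 0.18 and 0.23 ± 0.26 in that order (SE, limma adjusted p = 0.557, 0.239 and 0.749).

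The rate pooled over all A bases was 0.174 ± 0.0530% in high and 0.188 ± 0.0443% in low pigs (SD, n = 9 each), a difference of -0.0142 percentage points (exact two-sided permutation p = 0.542, adjusted over 12 kinds of change 0.953). Without let-7c A17G the difference was -0.000402 percentage points (exact permutation p = 0.968). Within runs of library codes it was -0.0628 for U074 to U077 (2 against 2, exact permutation p = 0.333), -0.0382 for U966 to U969 (2 against 2, p = 0.333), -0.0163 for U134 to U139 (4 high against 2 low, p = 0.533) and -0.0395 for AC485 to AC488 (1 high against 3 low, no test). With 2 against 2 the smallest two-sided p is 0.333. In the 4 profile sets that held both classes it was -0.0257, -0.0315, -0.0252 and -0.00926. These differences within runs and sets include let-7c A17G. Without that site, the rate was 0.0474% in high replicate 4 and 0.0495% in low replicate 3, which form a pair. It was 0.148% in high replicate 5 and 0.150% in low replicate 6, and 0.0876% in high replicate 7 and 0.0933% in low replicate 5. In the set of 6 libraries it was 0.0249% and 0.0255% in high and 0.0249% to 0.0274% in low pigs. The other 11 kinds of change also gave adjusted p of 0.953 or 0.993 (exact permutation).

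As single entries of the table, 413 A-to-G entries of 348 sequences were tested between the classes with edgeR's quasi-likelihood test and sex as a covariate. None passed (0% of 9012 entries of all kinds), with 47 at an unadjusted p under 0.05 (11.4%, against 7.29% of all entries) and a lowest adjusted p of 0.162. Of the A-to-G entries 240 had higher and 173 lower fitted values in high pigs, with a median log2 difference of 0.25 against 0.00 over all entries. Of the 5 sequences with the lowest p, 4 carried A7G, in miR-191, miR-125a, let-7a and miR-92a, and all 4 had positive log2 differences, high minus low, that did not pass the test. For miR-191 A7G high pigs had 49.6 ± 79.8 and low pigs 2.75 ± 1.04 CPM (reads of the entry per 1000000 reads of the library, SD, n = 9 each), a log2 difference of 4.17 ± 0.98 (SE, edgeR adjusted p = 0.162). Its reads were 5203 in high replicate 8 and 4576 in high replicate 6, and no other library had more than 640. For miR-125a A7G these 2 libraries had 740 and 1150 reads and no other more than 105, for let-7a A7G 5266 and 3280 and no other more than 612, and for miR-92a A7G 1876 and 1656 and no other more than 162. These are the 2 libraries with a median of 0.548% and 0.560% A-to-G at read base 7, and both belong to the high class. That median is over abundant miRNAs, which can include the ones named here. The fifth was the 20-base let-7c A17G form, for which high pigs had 366 ± 87.8 CPM against 519 ± 76.6 CPM for low pigs (SD, n = 9 each), a log2 difference of -0.49 ± 0.12 (SE, edgeR adjusted p = 0.176). DESeq2's Wald test called 20 of the 413 entries (3.00% of 9012 over all kinds), of which 18 carried A7G and were higher in high pigs, and the part of the 2 libraries in those calls was not tested. The other 2 were that let-7c form and the 21-base miR-497 A2G form, both lower in high pigs. With entries kept at a mean of at least 10 CPM, edgeR called 3 of 62 (3.21% of 1837 over all kinds), the A7G forms of miR-191 and, listed under its 2 precursors, of let-7a.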

How the data were processed

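Small RNA was sequenced from backfat of 18 pigs, with 2 libraries per lane, per the labels' protocols. The authors deposited raw counts, 1 whole number per read sequence, precursor and library. Per the submitters' processing notes, the tools were HTSeq, Bowtie 0.12.7 and DESeq2 1.4.5 and the build Sscrofa10.2, without their roles. No source used here gives the trimming, the allowed mismatches or the lowest count kept. The deposited counts had no value from 1 to 9 for a sequence with 1 listing, and smaller values only for sequences with several listings, where the reads were divided between them. Listings were therefore summed per sequence. Of 17175 entries with 1 mismatch, 278 could not be placed on templated bases. 2 columns of values that match no sample were not used.

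A level is reads with the change per unsubstituted read, both counted where the base lay from read base 2 to the third-last. Where no exact form was listed (15 miRNAs), positions count from the start of the commonest templated form. Sites needed a mean of 1000 unsubstituted reads per library. Expected levels came from the median rate at the same read base over at least 3 other miRNAs with a mean of 50000 reads there. Fits used R 4.3.3, limma 3.58.1, edgeR 4.0.16 (filterByExpr with a minimum count of 10, TMM) and DESeq2 1.42.0, with Benjamini-Hochberg adjustment over all sites or entries and a threshold of 0.05, and tables and permutations SciPy 1.17.1, NumPy 2.4.6 and pandas 2.3.3 under Python 3.11.15. The fits were also run on simulated data. For sites these had the same rate at all unchanged bases and in all libraries, so they lack the library profiles seen here. Cell type markers were 5 adipose, 5 skeletal muscle, 3 red blood cell, 4 white blood cell and 2 endothelial miRNAs and 1 of liver.

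The variants, the lists and the tests were chosen with earlier results of these data known. Sites are named if they were among the 25 highest levels of the sites above the other changes, on the list of known edited sites with coverage, among the 5 most read sequences or among the 5 entries with the lowest p. As a check for 1 library under 2 names, the 153 pairs of libraries were compared, and the smallest chi-square per degree of freedom was 38.5. No genome or hairpin of the build was used here, so positions are those of the deposited precursors and no genomic coordinates are given. Whether those positions count from 0 or 1 is not stated. Replicate numbers follow accession order and pair no animals. Intervals were not given for levels, because counts under 10 are not listed. Alternatives were another pseudocount, coverage minimum, margin, comparator, filter, scaling, tool or covariate, and leaving out each library.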

Additional observations from a re-analysis of the deposited data

Results flagged for a closer look

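Levels of the 9 sites above the same read base, of let-7e A19G and miR-27a A4G, and the pooled rate were looked at in each class for a library far from the other 8, which made 24 groups. Chance sets about 1 in 20 groups apart, and 2 were. For miR-365-3p A11G, high replicate 9 had 1.86%, and the next lowest high library 2.60%. For let-7e A19G, low replicate 6 had 1.97%, and the next highest low library 0.621%. The let-7e reads are the ones also listed as let-7c T9G.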

How the results depend on the processing

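Against the other changes at the same base, 52 sites became 24 with a pseudocount of 10, 15 with a 10-fold margin, 29 with 1 value per set of libraries with matching profiles, and 29, 14 and 17 within the library codes AC485 to AC488, U074 to U077 and U966 to U969. It was 46 to 53 without single libraries. Against the same read base, 9 sites became 17 with a 2-fold margin, 2 within U074 to U077 and 4 within U966 to U969 (4 libraries each, both without let-7c A17G), and 8 to 11 without single libraries. In the 18 runs without 1 library, only miR-27b-3p A4G lost its call, without low replicate 9. Without sequences listed with another change, the log2 ratio to the other changes turned to -0.85 for miR-98 A11G and -1.34 for let-7e A19G, and that to the same read base to -4.44 for miR-98 A11G and -6.92 for let-7f A12G. The comparison of A-to-G entries between classes gave 3 calls with a mean of at least 10 CPM and 20 with DESeq2, and 0 in the other settings and without each library. The pooled difference ran from -0.0238 to -0.00319 percentage points without single libraries and turned to 0.0128 (exact permutation p = 0.557) without the 52 sites; the cause was not tested. The median over sites was 0 in all 18 libraries and gave no comparison. Level comparisons by class and by sex gave 0 calls in every setting run. No sequence with an internal change had letters templated for another miRNA. Keeping or leaving out such reads therefore could not change the 52 sites. The comparison with the same read base, the pseudocount of 10, the sets of libraries, the removal of sequences listed with another change and the removal of let-7c A17G were chosen after seeing the data. No paired analysis was possible because the replicate numbers pair no animals. Depth limits levels at rare miRNAs, where unlisted counts can hide up to 9 reads a sequence.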

Other observations

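At bases with fewer than 1000 unsubstituted reads per library, 2 further A-to-G sites stood above the same read base when the minimum was lowered to 100. They were chosen after their values were seen. miR-545-5p A14G had 1487 reads with G over a mean of 608 unsubstituted reads per library. It was listed in all 18 libraries, at 5.35% to 16.9% in the high class and 7.44% to 19.1% in the low class, with a log2 ratio to the same read base of 6.45 ± 0.26 (SE, limma treat, adjusted p = 4.64e-10). miR-500 A1G, in reads that begin before the annotated start, had 670 reads over a mean of 329.7, and was listed in 16 libraries at up to 14.9%, with a log2 ratio of 5.43 ± 0.48 (SE, limma treat, adjusted p = 5.81e-05). After let-7c A17G these were the 2 highest A-to-G levels among the sites named. In both, the listed reads with G differed in form from those without. Counts under 10 are not listed, which can remove rarer forms with G, and the part of this limit in the difference was not tested. The 22-base form of miR-545-5p from the annotated start was 51.8% of the reads with G and 26.7% of those without. For the 24-base form of miR-500 the shares were 54.9% and 32.4%.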
